A study of Rattus norvegicus with 3 samples.

Results

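The genes described here make, move and store lipids. The list held 43 genes, chosen by symbol, of which 37 had a probe set (short probes whose signals are combined into 1 value) that the array annotation ties to exactly 1 gene symbol, among 14217 genes measured that way. They fall by role into sterol synthesis (11 measured of 12 listed), sterol and lipogenic regulators (3 of 3), fatty acid synthesis (4 of 4), fatty acid elongation (4 of 6), desaturation and hydroxylation (3 of 3), efflux and lipoproteins (4 of 4), uptake, binding and storage (6 of 6) and epidermal barrier lipids (2 of 5). Hmgcs1, Elovl4, Elovl7, Abca12, Alox12b and Cers3 were not analysed here.

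RNA came from soft tissue of the upper first molar region of wild type male Sprague Dawley rats aged 9 weeks, lifted from sections by laser microdissection. Peri-implant connective tissue (PICT) surrounded a titanium alloy implant that was set into the socket as soon as the molar had been extracted at 5 weeks of age, 4 weeks before harvest. Oral mucosa connective tissue (OMCT) came from the site of a molar extracted at the same age and left 4 weeks without an implant. Periodontal connective tissue (PCT) came from around a first molar in place, although the design text names mice at that point, all other labels say rat. Each tissue has 1 array, and how many animals were pooled for it, if any, is not stated in the labels.

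Cells build cholesterol from acetyl units through the mevalonate and lanosterol steps, and fatty acids through malonyl units that are then elongated, desaturated or hydroxylated. The SREBP transcription factors raise both routes when membrane sterol is low, while liver X receptors raise sterol efflux when it is high. In stratified epithelium, such as that of gingiva and oral mucosa, upper-layer cells make ceramides and oxidised lipids for the surface barrier, whereas macrophages take up lipid and hold it in droplets.

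With 1 array per tissue there is no replicate spread, so no test was run, no p-value is given, and every difference is between these arrays. Differences are in log2(intensity + 8.56) after each array's median was subtracted, called relative log2 differences, and a fold is 2 raised to that size, which understates the contrast of dim genes. A gene counts as higher or lower when this fold was at least 2 and the brighter array lay at or above its own median probe set. The median intensity was 56.5 in PICT, 57.4 in OMCT and 34.3 in PCT, so the log2 medians differ by 0.60 for PICT minus PCT, by -0.02 for PICT minus OMCT and by 0.62 for OMCT minus PCT. The 3'/5' signal ratio of the hexokinase control, which grows as RNA shortens, was 1.58 in PICT, 1.97 in OMCT and 2.80 in PCT. Between probe sets of 1 gene the relative difference had an SD of 0.49 in each comparison. In bulk tissue, fewer cells of a type and less RNA per cell cannot be told apart. The connective tissue label was checked against epithelial genes: Krt5, a basal keratin, had intensities of 7965 in PICT, 8595 in OMCT and 9565 in PCT, so each array held epithelial RNA as well.

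The lipid droplet and fatty acid genes Plin2, Fabp4, Cd36 and G0s2 were brightest around the implant, Apod and Fa2h were dimmest there, and Aloxe3 was dimmest at the healed extraction site. Of the 37 measured genes, 15 passed the 2-fold rule in at least 1 comparison and 22 in none. In PICT against PCT, 6 were higher and 4 lower (16.2% and 10.8%), beside 3.98% and 3.37% of all genes. In PICT against OMCT, 6 were higher and 1 lower (16.2% and 2.7%), beside 4.15% and 4.46%. In OMCT against PCT, 6 were higher and 6 lower (16.2% each), beside 5.66% and 4.81%. The rule can only pick genes of sufficient signal, and 35 of the 37 reached the array median somewhere, against 69.3% of all genes. As deposited, the counts were 8 higher and 2 lower in PICT against PCT (21.6% and 5.41%, beside 14.1% and 0.9% of all genes), 6 and 1 in PICT against OMCT (beside 3.98% and 4.64%), and 7 and 4 in OMCT against PCT (18.9% and 10.8%, beside 17.6% and 2.1%). With a 1.5-fold rule on the centred scale, PICT against PCT had 8 higher and 10 lower (21.6% and 27% of members, beside 8.98% and 10.6% of all genes), PICT against OMCT 12 and 2 (32.4% and 5.41%, beside 9.04% and 11.2%), and OMCT against PCT 6 and 16 (16.2% and 43.2%, beside 11.7% and 10.6%). Without the level requirement, 2-fold lower genes in PICT against OMCT were 2 members and 6.34% of all genes. As deposited, the share of higher members in OMCT against PCT was close to that of all genes. The 3 comparisons share arrays, so they are given side by side and not as separate evidence.

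**Figure D1:**
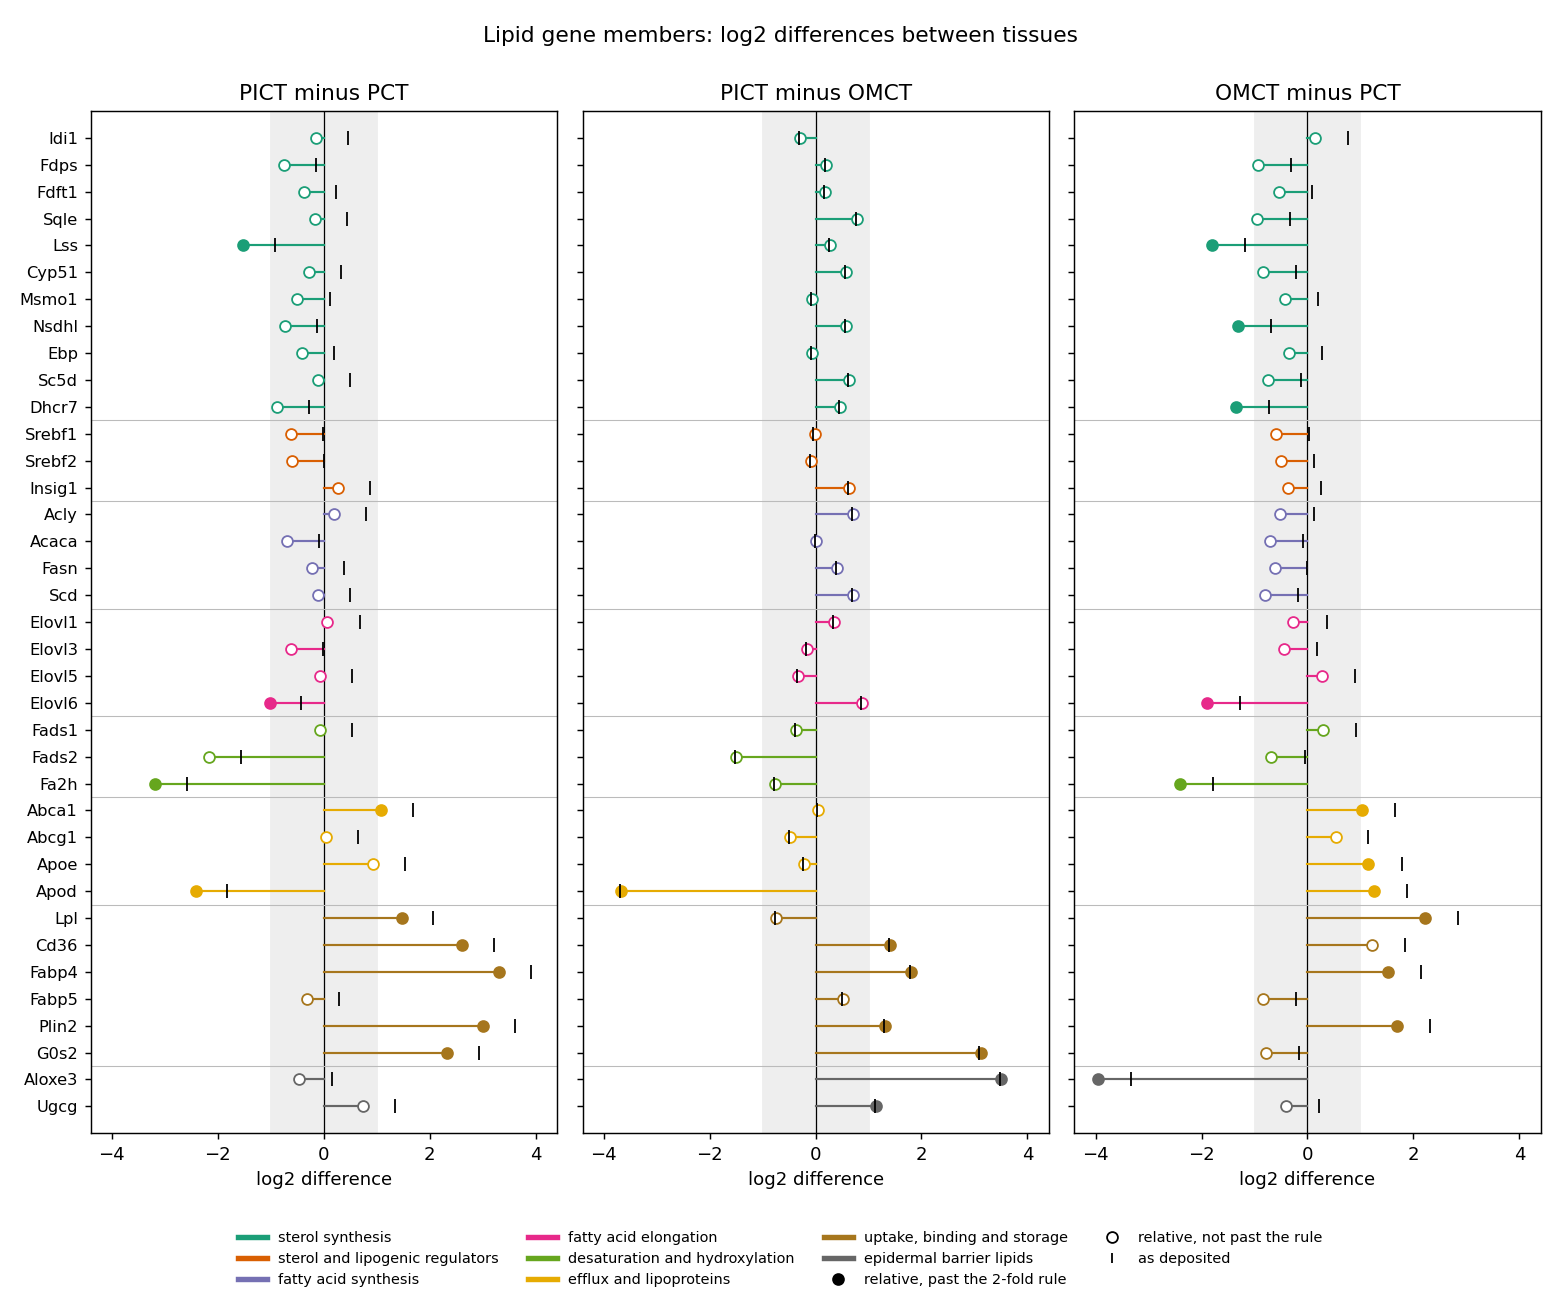
Log2 difference (horizontal axis) of each of the 37 measured lipid genes (rows, grouped by role) in PICT minus PCT, PICT minus OMCT and OMCT minus PCT. Circles are differences relative to the array medians, filled where the gene passed the 2-fold rule, black ticks are the same values as deposited, and the grey band spans less than 2-fold. Uptake and storage genes reach 3.31 in PICT minus PCT, while sterol synthesis genes stay within 2-fold there except Lss.

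Of the uptake, binding and storage genes, 5 of 6 were higher around the implant than around the tooth, and 4 of 6 exceeded OMCT. Their median relative difference was 2.48 in PICT minus PCT, where all genes had a median of -0.13, and 1.36 in PICT minus OMCT, where all genes had -0.04. In OMCT minus PCT 3 of 6 were higher, with a median of 1.37 beside -0.08 for all genes. No gene of the group was lower by the rule in any of these comparisons, under centred or deposited values.

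Plin2 encodes perilipin 2, the coat protein of lipid droplets in cells other than fat cells. Its intensity was 451 in PICT, 179 in OMCT and 29.2 in PCT. PICT was highest and PCT lowest, with relative differences of 3.0 (8.02-fold higher) against PCT, 1.31 (2.49-fold) against OMCT, and 1.69 for OMCT minus PCT. A dimmer Plin2 probe set ran the same way with smaller steps, at 166 in PICT, 111 in OMCT and 52.0 in PCT, or 0.92, 0.57 and 0.35 for these differences. With the mean of both probe sets, the PICT minus OMCT value was 0.94, under 2-fold.

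Fabp4 encodes a fatty acid binding protein of fat cells, macrophages and capillary endothelium. It had an intensity of 275 in PICT, 74.2 in OMCT and 10.2 in PCT. This is the same order of tissues as for Plin2, and PICT was 9.94-fold higher than PCT (relative difference 3.31) and 3.47-fold higher than OMCT (1.80). OMCT minus PCT was 1.52. Cd36, a scavenger receptor that brings in fatty acids and oxidised lipoprotein, had 124 in PICT, 42.0 in OMCT and 5.60 in PCT. Its differences were 2.62 for PICT minus PCT and 1.41 for PICT minus OMCT. In PCT Cd36 did not exceed the highest negative control probe set of that array (5.71), so the size against PCT is not exact, and OMCT minus PCT (1.21) did not count because the brighter array lay below its median. A probe set that the annotation ties to Cd36 and another symbol together was left out.

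G0s2 encodes an inhibitor of adipose triglyceride lipase, the enzyme that opens stored triglyceride. Its intensity was 1250 in PICT, 139 in OMCT and 156 in PCT. Unlike Plin2, Fabp4 and Cd36, G0s2 was high around the implant alone, at 2.33 above PCT (5.03-fold) and 3.12 above OMCT (8.66-fold), while OMCT minus PCT was -0.78. Lpl, the lipase that frees fatty acids from circulating lipoproteins, had 463 in PICT, 791 in OMCT and 103 in PCT. Lpl was thus higher at both extraction sites than around the tooth, by 1.47 in PICT and 2.21 in OMCT, and PICT minus OMCT was -0.74. Fabp5, the epidermal fatty acid binding protein, was the gene of this group that passed the rule nowhere, with 8979 in PICT, 6336 in OMCT and 7351 in PCT. Signals this close to the brightest on the arrays can understate differences for Fabp5.

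Markers of other cell types moved with some of these genes. Of 15 macrophage markers, PICT had 11 higher and 0 lower against PCT, OMCT had 14 and 0 against PCT, and PICT had 1 and 4 against OMCT. Their summed intensity was 14073 in PICT, 15479 in OMCT and 1543 in PCT, of which lysozyme (Lyz2) made up 7419 in PICT, 7094 in OMCT and 797 in PCT. Trem2 was the macrophage marker not above the negative control in PCT. Of 8 measured adipocyte markers none passed the rule on the centred scale (as deposited, Adrb3 was higher in OMCT against PCT), and their summed intensity was 144 in PICT, 244 in OMCT and 122 in PCT. Adiponectin (Adipoq), which defines fat cells, had 1.86 in PICT, 5.92 in OMCT and 5.91 in PCT, and Plin1, the droplet coat of fat cells, had 5.37 in PICT, 10.97 in OMCT and 5.42 in PCT. In PICT, 5 of the 8 (Adipoq, Plin1, Cidec, Lep and Pck1) stayed below the negative control maximum of 8.36, while Cfd (74.8), Adrb3 (29.5) and Lipe (19.3) lay above it. Endothelial markers were lower in PICT for 5 of 9 genes against PCT and 5 of 9 against OMCT (2 and 5 as deposited), with sums of 2676 in PICT, 5107 in OMCT and 2921 in PCT. The part of macrophage, fat cell or endothelial RNA in the uptake and storage differences was not tested.

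**Figure D2:**
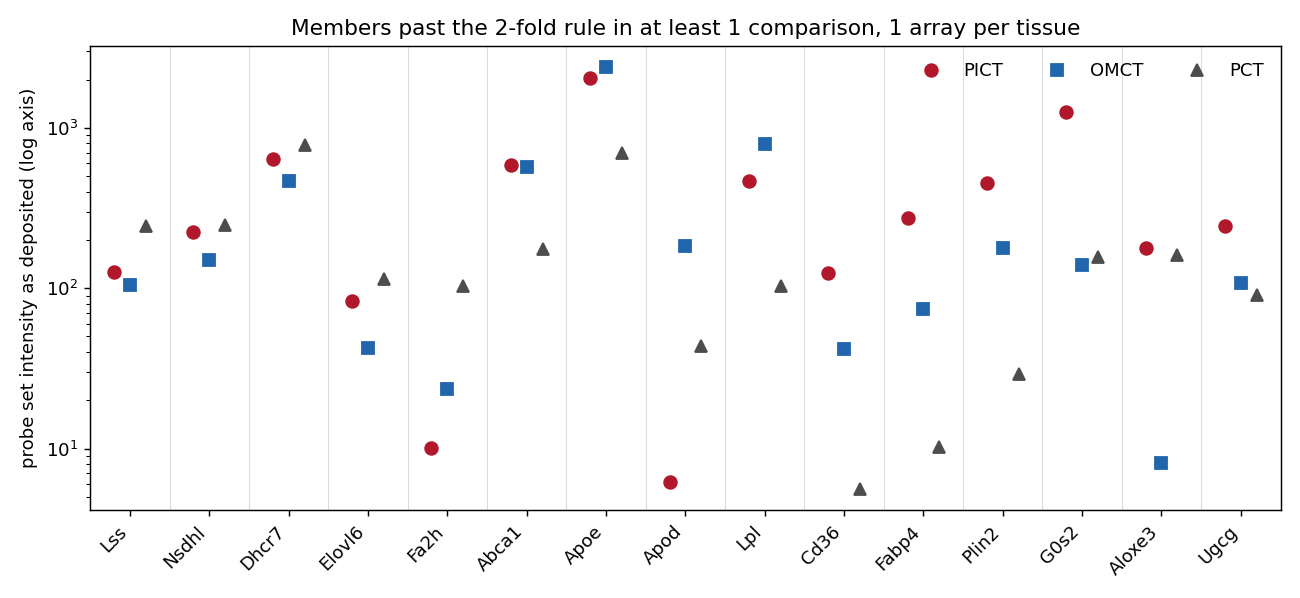
Probe set intensity as deposited (vertical log axis) of the 15 lipid genes that passed the 2-fold rule in at least 1 comparison, with 1 point per tissue (circle PICT, square OMCT, triangle PCT). Cd36, Fabp4 and Plin2 descend from PICT through OMCT to PCT, G0s2 stands out in PICT, and Aloxe3 drops to 8.09 in OMCT.

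Genes of sterol efflux and lipoproteins were higher at the healed extraction site than around the tooth. In OMCT minus PCT 3 of 4 were higher, with a median of 1.09. Apoe, the apolipoprotein that macrophages secrete with effluxed cholesterol, had an intensity of 2034 in PICT, 2395 in OMCT and 693 in PCT. Both extraction sites exceeded PCT, OMCT by 1.15 (2.23-fold) and PICT by 0.94, just under the rule. A second, dim Apoe probe set (12.5 in PICT, 2.15 in OMCT and 0.808 in PCT) gave -0.43 for OMCT minus PCT. Abca1, the transporter that loads cholesterol onto lipid-poor apolipoproteins, had 586 in PICT, 574 in OMCT and 176 in PCT. Its differences were 1.08 for PICT minus PCT and 1.03 for OMCT minus PCT, close to the threshold. The other Abca1 probe sets gave 1.12, 0.41 and 0.11 for PICT minus PCT and 1.15, 0.74 and 0.74 for OMCT minus PCT, and their mean with the brightest was under 2-fold in both. Abcg1, which exports cholesterol to high density lipoprotein, had 175 in PICT, 252 in OMCT and 109 in PCT and passed the rule nowhere on the centred scale, with 0.53 as its value in OMCT minus PCT. As deposited, Abcg1 passed the rule too for OMCT against PCT (1.15), as Apoe was in PICT (1.54). The macrophage marker sums given above order PICT and OMCT over PCT in the same way, and their part in these differences was not tested.

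Apod behaved unlike the rest of this group. It encodes apolipoprotein D, a lipocalin made by fibroblasts and glial cells that binds arachidonic acid and steroids. Its intensity was 6.20 in PICT, 182 in OMCT and 43.4 in PCT. Apod was lowest around the implant, at -3.67 against OMCT (12.7-fold lower) and -2.42 against PCT (5.34-fold lower), and OMCT minus PCT was 1.25. The PICT signal did not exceed the negative control of 8.36, so these sizes are not exact. Fibroblast markers had a summed intensity of 27928 in PICT, 44909 in OMCT and 21722 in PCT. In PICT they were lower for 4 of 10 genes and higher for 0 against OMCT, and lower for 2 and higher for 1 against PCT. As deposited the count against PCT turned to 1 lower and 4 higher. Their part in the Apod difference was not tested.

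Sterol synthesis genes differed less than the storage genes. By the rule, PICT had 0 of 11 higher and 1 lower against PCT, no gene passed in PICT against OMCT, and OMCT had 0 higher and 3 lower against PCT. Relative to the array medians all 11 lay below 0 in PICT minus PCT (median -0.41, beside -0.13 for all genes). As deposited 7 lay above 0 and 4 below, so the sign rests on how PCT is scaled. The deposited median was 0.19, beside 0.47 for all genes, so it lay below that of all genes on both scales. With trimmed mean or quantile scaling 0 of 11 lay above 0. In OMCT minus PCT 10 of 11 lay below 0 (median -0.84, beside -0.08 for all genes). As deposited 7 of 11 did (median -0.22, beside 0.54). In PICT minus OMCT 8 of 11 lay above 0 on either scale (medians 0.27 and 0.25), with the highest value for Sqle, the squalene epoxidase, at 0.79.

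Lss encodes lanosterol synthase, which closes squalene epoxide into the first sterol. It had an intensity of 125 in PICT, 104 in OMCT and 246 in PCT. PCT was highest for Lss, with -1.53 for PICT minus PCT (2.88-fold lower) and -1.80 for OMCT minus PCT (3.47-fold lower). As deposited these were -0.92, under the rule, and -1.17. A dimmer Lss probe set barely separated the tissues, with 58.8 in PICT, 65.1 in OMCT and 57.2 in PCT, or -0.57 and -0.46. Dhcr7, the reductase of the last cholesterol step, had 640 in PICT, 468 in OMCT and 777 in PCT, and Nsdhl, which removes a carboxyl group at carbon C4 of the sterol ring, had 225, 150 and 248 in that order of tissues. Both were lowest in OMCT, with OMCT minus PCT at -1.34 for Dhcr7 and -1.31 for Nsdhl. As deposited these were -0.72 and -0.69, and neither passed the rule.

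The other sterol synthesis genes passed the rule in no comparison. They were Idi1, the isomerase that sets up isoprenoid chain growth, Fdps, the farnesyl diphosphate synthase, Fdft1, the squalene synthase, Sqle, the demethylating Cyp51 and Msmo1, the isomerase Ebp and the desaturase Sc5d. Fdps, for example, had 953 in PICT, 846 in OMCT and 1052 in PCT, and Cyp51 had 993, 676 and 789 in that order. Sqle, which controls flux late in the pathway, had 326 in PICT, 187 in OMCT and 238 in PCT. Their relative differences ran between -0.74 (Fdps) and -0.11 (Sc5d) in PICT minus PCT, and between -0.95 (Sqle) and 0.15 (Idi1) in OMCT minus PCT. These values are of the probe sets used. In OMCT minus PCT a second Idi1 probe set gave -0.84. Dimmer probe sets of Fdft1 (158 in OMCT and 227 in PCT) and Sc5d (57.3 and 80.5) gave -1.12 and -1.06, past 2-fold. The remaining probe sets of Sc5d and Cyp51 gave -0.58 and -0.12.

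The regulators differed little on the probe sets used. Srebf1, which encodes the SREBP that drives fatty acid genes, had 104 in PICT, 107 in OMCT and 105.04 in PCT, and Srebf2, which encodes the SREBP of sterol genes, had 456, 494 and 452. On these probe sets the deposited intensities were nearly level. Their relative differences against PCT were -0.62 and -0.59 in PICT and -0.60 and -0.50 in OMCT. These appear once the arrays are scaled, since all genes had deposited medians of 0.47 in PICT minus PCT and 0.54 in OMCT minus PCT. With trimmed mean scaling the median of the 3 regulators was -0.59 in PICT minus PCT and -0.53 in OMCT minus PCT. With quantile scaling it was -0.57 and -0.50. A second Srebf1 probe set was not level, with 95.9 in PICT, 69.4 in OMCT and 101 in PCT. It gave -0.67 for PICT minus PCT and -1.11 for OMCT minus PCT, the latter past 2-fold. A second, dim Srebf2 probe set gave -0.72 and 0.09. Insig1, which holds SREBP in the endoplasmic reticulum and is itself an SREBP target, had 847 in PICT, 547 in OMCT and 459 in PCT. PICT was highest for Insig1, at 0.64 above OMCT and 0.27 above PCT (0.87 as deposited), all under 2-fold.

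Promoters of 4 genes past the rule are shown as examples, Lss and Nsdhl from sterol synthesis and G0s2 and Cd36 from storage and uptake. The sequences are from RefSeq, build GRCr8, from 250 bases before to 50 after the start of the gene, in the gene's direction. Lss lies at chr20:12118181-12118480, minus strand; Nsdhl at chrX:155817110-155817409, plus strand. G0s2 lies at chr13:107335899-107336198, minus strand; Cd36 at chr4:18246332-18246631, plus strand. Capitals mark each CCAAT box, read on either strand, the site of the factor NF-Y that acts beside SREBP.
Lss: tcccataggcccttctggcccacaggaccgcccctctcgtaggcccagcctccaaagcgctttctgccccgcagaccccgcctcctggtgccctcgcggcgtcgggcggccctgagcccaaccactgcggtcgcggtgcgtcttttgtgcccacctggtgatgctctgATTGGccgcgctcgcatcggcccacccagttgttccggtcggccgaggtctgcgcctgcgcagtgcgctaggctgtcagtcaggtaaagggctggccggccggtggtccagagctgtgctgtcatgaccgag
Nsdhl: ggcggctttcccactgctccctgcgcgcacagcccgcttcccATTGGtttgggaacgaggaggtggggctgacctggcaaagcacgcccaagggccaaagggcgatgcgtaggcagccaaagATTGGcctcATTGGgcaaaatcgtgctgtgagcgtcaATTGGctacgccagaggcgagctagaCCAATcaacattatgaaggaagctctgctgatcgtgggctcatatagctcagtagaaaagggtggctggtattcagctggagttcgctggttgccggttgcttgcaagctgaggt
G0s2: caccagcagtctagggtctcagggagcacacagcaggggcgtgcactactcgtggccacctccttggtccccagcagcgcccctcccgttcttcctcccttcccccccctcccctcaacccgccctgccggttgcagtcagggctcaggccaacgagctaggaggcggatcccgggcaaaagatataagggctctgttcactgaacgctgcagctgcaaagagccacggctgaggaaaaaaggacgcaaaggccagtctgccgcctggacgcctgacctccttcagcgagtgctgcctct
Cd36: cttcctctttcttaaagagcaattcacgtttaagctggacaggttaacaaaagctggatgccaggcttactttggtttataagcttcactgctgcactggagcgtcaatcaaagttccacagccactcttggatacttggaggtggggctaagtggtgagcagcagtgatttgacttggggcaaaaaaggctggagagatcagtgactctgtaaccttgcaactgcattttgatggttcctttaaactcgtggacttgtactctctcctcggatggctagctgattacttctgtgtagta

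Lss held 1 CCAAT box, 82 bases before the start, and Nsdhl held 5, while G0s2 and Cd36 held 0 in this window. The roles did not divide this way throughout: the promoter of Dhcr7, another sterol gene past the rule, held 0, and 1 of the 2 Plin2 promoters held 1. Of the 37 measured genes 27 had promoters in the table, 31 in all since some genes have several starts. A CCAAT box stood in 20 of 31 (64.5%), against 37.5% of all 33469 promoters of that length. By role it stood in 7 of 9 sterol synthesis promoters and in 1 of 4 uptake and storage promoters. The sterol regulatory element core, searched as TCACNCCAC on both strands, stood in 0 of 31 and in 1.12% of all promoters. Such matches describe letters in a short window and say nothing of binding.

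Fatty acid synthesis genes passed the rule in no comparison. Acly, which makes cytosolic acetyl-CoA from citrate, had 809 in PICT, 501 in OMCT and 462 in PCT, and Fasn, the fatty acid synthase, had 661, 503 and 504. Scd, the desaturase that makes monounsaturated fatty acids, had 125 in PICT, 74.8 in OMCT and 85.9 in PCT. PICT was the brightest array as deposited for these probe sets, whereas Acaca, the carboxylase that makes malonyl-CoA, was nearly level at 233, 235 and 249. On the probe sets used, relative differences spanned 0.01 to 0.70 in PICT minus OMCT, -0.70 to 0.19 in PICT minus PCT and -0.80 to -0.51 in OMCT minus PCT. A dimmer Fasn probe set was brightest in PCT, with 118 in PICT, 84.6 in OMCT and 145 in PCT. It gave -0.88 for PICT minus PCT and -1.34 for OMCT minus PCT, the latter past 2-fold. A second Acaca probe set was less level, with 182 in PICT, 247 in OMCT and 141 in PCT.

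Among the elongases, Elovl6, which extends saturated fatty acids from palmitate to stearate, was lowest in OMCT. It had 82.7 in PICT, 42.1 in OMCT and 113 in PCT. OMCT minus PCT was -1.89 (3.71-fold lower) and PICT minus PCT was -1.02, at the edge of the rule and -0.42 as deposited. A second Elovl6 probe set had the same order, with 54.0 in PICT, 45.1 in OMCT and 87.9 in PCT, or -1.47 and -1.23. Elovl5, an elongase of polyunsaturated fatty acids, had 858 in PICT, 1101 in OMCT and 588 in PCT, and Elovl1, an elongase of very long saturated chains, had 438, 349 and 271. Neither passed the rule, with values between -0.34 and 0.34. Elovl3, an elongase of sebaceous glands and brown fat in mice, did not exceed the negative control on any array (0.697 in PICT, 2.02 in OMCT and 0.764 in PCT). The 8 measured sebaceous gland markers, Elovl3 among them, summed to 1916 in PICT, 779 in OMCT and 932 in PCT. Most of each sum was Dgat2 (1278 in PICT, 220 in OMCT and 649 in PCT) and Mgst1 (508, 442 and 243). Among them Soat1, a cholesterol esterifying enzyme, was higher in PICT (1.87) and OMCT (1.61) against PCT. Dgat2, a triglyceride synthesis enzyme, was higher in PICT against OMCT (2.51) and lower in OMCT against PCT (-2.14). The other 6 passed nowhere on the centred scale, while as deposited Mgst1 was higher in PICT against PCT (1.04). The melanocortin receptor gene Mc5r, another of these markers, had 0.443 in PICT, 5.79 in OMCT and 0.422 in PCT. Mc5r, Krt79 and Elovl3 in PICT, and Mc5r, Pparg and Elovl3 in PCT, did not exceed the negative control.

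Fa2h encodes the hydroxylase that places a hydroxyl group on fatty acids of epidermal and myelin sphingolipids. Its intensity was 10.1 in PICT, 23.6 in OMCT and 103 in PCT. Fa2h was high around the tooth alone, at -3.18 for PICT minus PCT (9.06-fold lower) and -2.41 for OMCT minus PCT (5.33-fold lower), while PICT minus OMCT was -0.76. Schwann cell markers, which include myelin genes, had a summed intensity of 536 in PICT, 653 in OMCT and 967 in PCT. Against PCT, 4 of 8 were lower and none higher in PICT, and 1 of 8 was lower and none higher in OMCT. Myelin basic protein (Mbp) had 134 in PICT, 123 in OMCT and 374 in PCT. The part of nerve RNA in the Fa2h difference was not tested.

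The front-end desaturases of polyunsaturated fatty acids were dim. Fads2 had 5.00 in PICT, below the negative control there, 30.3 in OMCT and 31.7 in PCT. Its differences of -2.17 against PCT and -1.50 against OMCT did not count, because neither brighter array reached its median. Fads1 had 57.1 in PICT, 77.3 in OMCT and 36.8 in PCT, with relative values between -0.37 and 0.30.

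**Figure D3:**
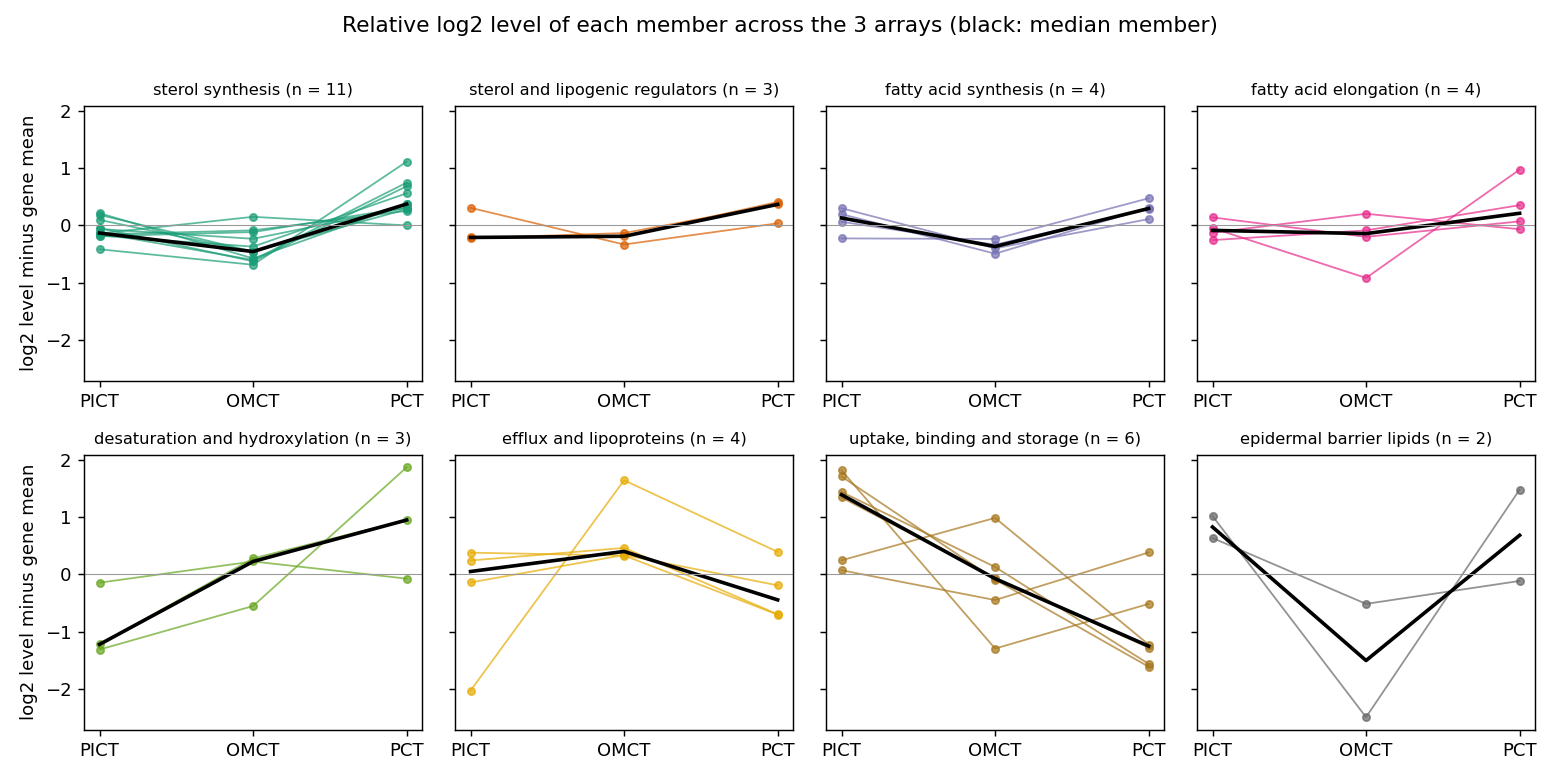
Log2 level of each measured lipid gene relative to the array median, minus that gene's mean over the 3 arrays (vertical axis), in PICT, OMCT and PCT, with 1 panel and colour per role, 1 line per gene and the median gene in black. Storage and uptake genes descend from PICT to PCT apart from Lpl, Fabp5 and G0s2, most sterol genes vary less, and the barrier genes dip in OMCT.

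Of the epidermal barrier genes Aloxe3 and Ugcg were measured, and both were higher in PICT than in OMCT. Aloxe3 encodes the epidermal lipoxygenase that turns hydroperoxides into hepoxilins and epoxyalcohols for the ceramide envelope. It had 178 in PICT, 8.09 in OMCT and 160 in PCT. Aloxe3 was nearly level between implant and tooth (-0.46 for PICT minus PCT) and far lower in OMCT, with 3.50 for PICT minus OMCT (11.4-fold higher) and -3.96 for OMCT minus PCT (15.6-fold lower). Ugcg, which makes glucosylceramide, the form in which upper-layer cells load ceramide for secretion, had 244 in PICT, 107 in OMCT and 90.8 in PCT. It was 1.14 above OMCT (2.21-fold) and 0.74 above PCT in PICT, and as deposited it also passed the rule against PCT (1.34). Upper-layer epithelial markers were higher in PICT than in OMCT for 13 of 14 genes and lower in OMCT than in PCT for 13 of 14, with none passing the rule in PICT against PCT. Their summed intensity was 31389 in PICT, 3337 in OMCT and 25997 in PCT, and their part in the Aloxe3 and Ugcg values was not tested. Basal epithelial markers, in contrast, summed to 25854 in PICT, 26409 in OMCT and 29410 in PCT as deposited. On the centred scale all 9 measured lay below 0 in PICT minus PCT, with a median of -0.85 and 2 lower by the rule. The median was -0.93 in OMCT minus PCT, with 1 lower, and -0.09 in PICT minus OMCT, with 1 lower. None was higher by the rule. Krt15, a basal keratin, was lower in PICT against both PCT (-2.90) and OMCT (-2.10).

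A further 144 genes of the same pathways, 118 of them measured, were counted by the same rule. Together PICT had 11 higher and 4 lower against PCT (9.32% and 3.39%), 12 and 1 in PICT against OMCT (10.2% and 0.847%), and 9 and 15 in OMCT against PCT (7.63% and 12.7%), beside the all-gene percentages given above. As deposited the counts were 23 and 0 in PICT against PCT (19.5% and 0%, beside 14.1% and 0.9% of all genes). PICT against OMCT had 12 and 1 (10.2% and 0.847%, beside 3.98% and 4.64%). OMCT against PCT had 23 and 7 (19.5% and 5.93%, beside 17.6% and 2.1%), where the higher share was near that of all genes. The split of directions against PCT thus rests on scaling. The median relative difference of these genes was -0.06 in PICT minus PCT, 0.13 in PICT minus OMCT and -0.17 in OMCT minus PCT.

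The efflux and uptake list had 33 measured genes. In PICT against PCT 6 were higher and 1 lower (18.2% and 3.03%, beside 3.98% and 3.37% of all genes). As deposited 8 were higher and 0 lower (24.2% and 0%, beside 14.1% and 0.9%). Lipa, the lysosomal lipase that frees cholesterol from taken-up lipoprotein, had 389 in PICT, 201 in OMCT and 40.0 in PCT, a difference of 2.43 against PCT. Angptl4, a secreted inhibitor of lipoprotein lipase, had 245 in PICT, 71.4 in OMCT and 22.9 in PCT, at 2.41 against PCT and 1.69 against OMCT. Pltp, the phospholipid transfer protein, had 496, 445 and 72.0, high at both extraction sites, at 2.04 in PICT and 1.87 in OMCT against PCT. In PICT against OMCT 3 were higher and 1 lower (9.09% and 3.03%, beside 4.15% and 4.46%). Crabp2, a retinoic acid binding protein of differentiating keratinocytes, was at 2.10 and Angptl2, a secreted angiopoietin-like protein, at -2.40. In OMCT against PCT 6 were higher and 2 lower (18.2% and 6.06%, beside 5.66% and 4.81%), with Crabp2 at -2.19 and Angptl2 at 1.92. As deposited 10 were higher and 1 lower (30.3% and 3.03%, beside 17.6% and 2.1%).

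Of storage and lipolysis genes outside the main list 34 were measured. PICT had 4 higher (11.8%, beside 4.15% of all genes) and 0 lower (beside 4.46%) against OMCT. Dgat2, which makes the final step of triglyceride synthesis, had 1278 in PICT, 220 in OMCT and 649 in PCT, a difference of 2.51 for PICT minus OMCT. Pnpla3, a droplet-bound lipase relative, had 218 in PICT, 30.9 in OMCT and 55.3 in PCT, at 2.54 against OMCT and 1.23 against PCT. Cebpa, a transcription factor of fat cells and keratinocytes, was at 1.44 for PICT minus OMCT. In PICT against PCT 2 were higher and 1 lower (5.88% and 2.94%), near the 3.98% and 3.37% of all genes. As deposited 4 were higher and 0 lower (11.8% and 0%, beside 14.1% and 0.9%). Those past the rule on the centred scale included Ppard, a nuclear receptor for fatty acids, at -1.24 and Lpin2, a phosphatidate phosphatase, at 1.03. In OMCT against PCT 0 were higher and 5 lower (0% and 14.7%, beside 5.66% and 4.81%). Dgat2 at -2.14 and Agpat3, an acyltransferase of phosphatidic acid synthesis, at -2.12 led the lower genes. As deposited 3 were higher and 2 lower (8.82% and 5.88%, beside 17.6% and 2.1%).

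Of the barrier lipid genes outside the main list 18 were measured. Against OMCT, PICT had 3 higher (16.7%, beside 4.15% of all genes) and 0 lower (beside 4.46%). Against PCT, OMCT had 1 higher (5.56%, beside 5.66%) and 3 lower (16.7%, beside 4.81%). As deposited 3 were higher and 3 lower (16.7% each, beside 17.6% and 2.1%). Acer1, an alkaline ceramidase of epidermis, had 359 in PICT, 22.0 in OMCT and 177 in PCT, or 3.61 for PICT minus OMCT and -3.22 for OMCT minus PCT. Sult2b1, which makes cholesterol sulfate, was at 1.31 and -1.87 in these comparisons, and Slc27a4, a fatty acid transporter of epidermis, at 1.03 in the first. Asah1, the acid ceramidase, was higher against PCT in PICT (1.10) and in OMCT (1.36), and Cers2, a ceramide synthase, was lower in PICT against PCT (-1.03). In PICT against PCT 1 was higher and 1 lower (5.56% each, beside 3.98% and 3.37%). As deposited 7 were higher and 0 lower (38.9% and 0%, beside 14.1% and 0.9%).

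Of fatty acid genes outside the main list 19 were measured. In PICT against PCT 2 were higher and 0 lower (10.5% and 0%, beside 3.98% and 3.37% of all genes). PICT against OMCT gave 2 and 0 (10.5% and 0%, beside 4.15% and 4.46%). OMCT against PCT gave 2 and 3 (10.5% and 15.8%, beside 5.66% and 4.81%). As deposited, PICT against PCT gave 3 and 0 (15.8% and 0%, beside 14.1% and 0.9%). PICT against OMCT stayed at 2 and 0 (beside 3.98% and 4.64%). OMCT against PCT gave 4 and 0 as deposited (21.1% and 0%, beside 17.6% and 2.1%). Acsl4, which activates arachidonic acid, had 206 in PICT, 229 in OMCT and 49.5 in PCT, at 1.28 and 1.41 above PCT in PICT and OMCT. Acsl1, a long-chain acyl-CoA synthetase, was at 1.34 for PICT minus OMCT and -1.48 for OMCT minus PCT, and Me1, the malic enzyme that supplies NADPH, at 1.21 for PICT minus OMCT. Of sterol pathway genes outside the main list 14 were measured. On the centred scale 1 was lower in PICT against PCT (7.14%, beside 3.37% of all genes). In OMCT against PCT 2 were lower (14.3%, beside 4.81%). None passed in PICT against OMCT, and none was higher in any comparison. As deposited, 1 was higher and 0 lower in PICT against PCT (7.14% and 0%, beside 14.1% and 0.9%). In OMCT against PCT 3 were then higher and 1 lower (21.4% and 7.14%, beside 17.6% and 2.1%). The gene that stayed lower there was Scap (-1.02). Scap, the escort of SREBP, was at -1.12 and -1.65 against PCT in PICT and OMCT, and Mvd, a decarboxylase of the mevalonate route, at -1.54 in OMCT minus PCT.

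**Figure D4:**
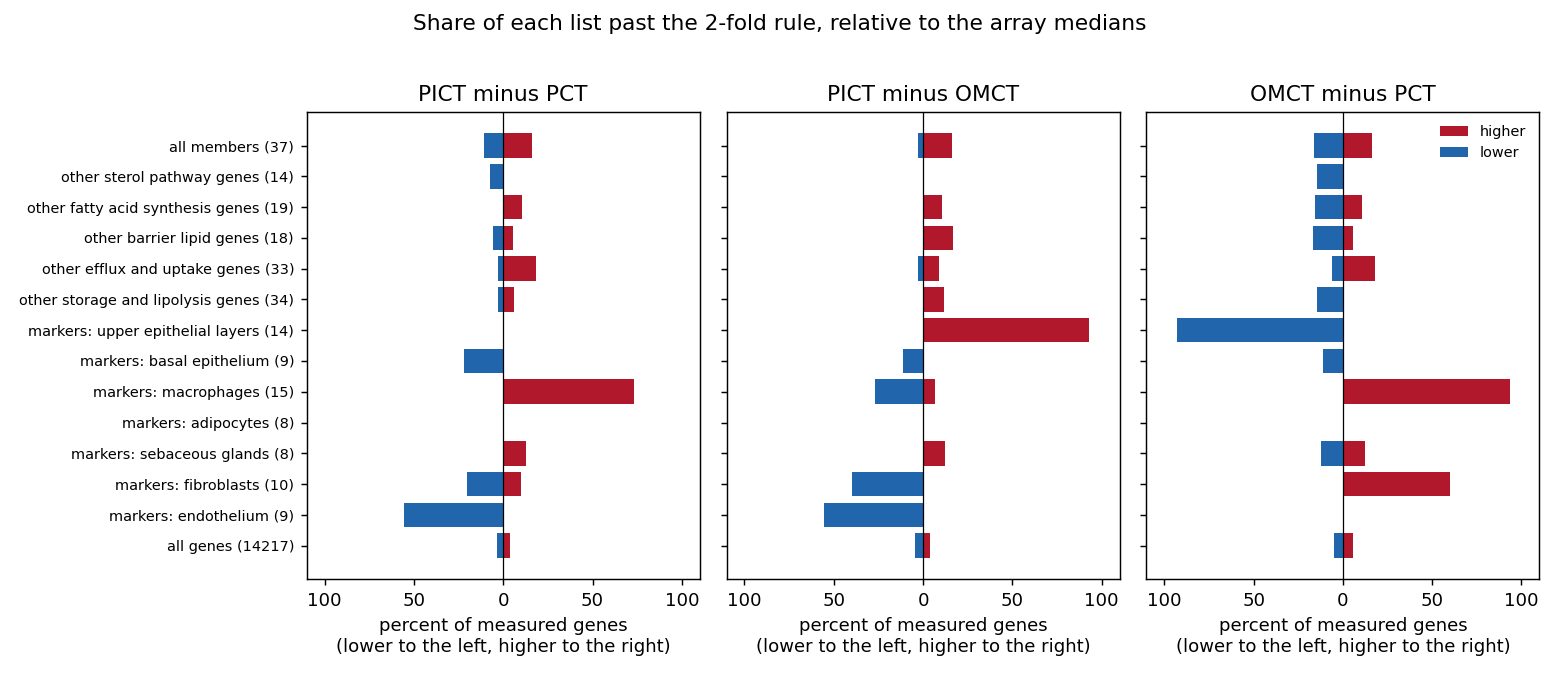
Percent of the measured genes of each list (number in brackets) that were at least 2-fold higher (red, right) or lower (blue, left) relative to the array medians, in PICT minus PCT, PICT minus OMCT and OMCT minus PCT, with all 14217 genes in the bottom row. Macrophage markers are higher in 11 of 15 genes in PICT minus PCT, upper epithelial markers in 13 of 14 in PICT minus OMCT, and adipocyte markers pass the rule in none on this scale.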

How the data were processed

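The authors deposited linear intensities, with 1 value for each probe set, from 0.0124 to 13104, as the values themselves show. Per the labels' protocols, RNA was purified on RNeasy columns and amplified with biotin by an Affymetrix 3'IVT Express kit. The summary of probes and the scaling of arrays are not given in the sources used here.

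Of 31099 probe sets, 20832 had 1 gene symbol in the 2016 platform annotation, 436 several and 9831 none. Those with 1 symbol were used, the brightest on average per gene, and all 37 measured genes matched RefSeq (GRCr8) by gene ID. The added constant of 8.56 is the 20th percentile of all values. Every array measured 1 tissue, so the number of arrays limits the precision and no test was possible. The calculation of calls was tested on simulated arrays, which does not measure error between animals. Genes past the rule are named with intensities, the others by ranges, and lists name at most 3 genes per comparison. The alternatives concerned scaling, added constant, level requirement, probe set choice and fold. The genes, lists and settings were chosen with earlier results of these data known. Computations used Python 3.11.15, pandas 2.3.3 and numpy 2.4.6.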

Additional observations from a re-analysis of the deposited data

How the results depend on the processing

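None of the 29 member calls changed direction under the 9 other settings. The settings for level and fold leave the differences as they are, so they could not have turned a direction. Leaving out the centring shifts every difference by 0.60, -0.02 or 0.62. A call needs a log2 size of at least 1, so this could not turn a direction. Dropping the level requirement or using a 1.5-fold rule could not end a call either. A call ended in these cases. As deposited, without centring, Lss and Elovl6 (PICT minus PCT) and Nsdhl and Dhcr7 (OMCT minus PCT) were under 2-fold, and lower members in PICT against PCT numbered 2. The median member difference was then 0.39 in PICT minus PCT and 0.12 in OMCT minus PCT, in place of -0.22 and -0.51. All genes had medians of 0.47 and 0.54 as deposited, in place of -0.13 and -0.08. The member median thus lay below that of all genes on both scales. Scaling on the trimmed mean ended Elovl6 (PICT minus PCT), and quantile normalization ended none. With the constant at the median of all values, Elovl6 (PICT minus PCT), Cd36 and Ugcg (PICT minus OMCT) and Nsdhl, Apod and Fabp4 (OMCT minus PCT) fell under the rule, and with a constant of 1 Abca1 (OMCT minus PCT) did. At the 60th percentile for level, Apod (PICT minus PCT) and Fabp4 (OMCT minus PCT) no longer counted. The mean over probe sets ended Abca1 (both comparisons with PCT), Plin2 (PICT minus OMCT) and Apoe (OMCT minus PCT). A 1.5-fold rule gave 8 higher and 10 lower in PICT against PCT, 12 higher and 2 lower in PICT against OMCT, and 6 higher and 16 lower in OMCT against PCT. Without the level requirement 2 were lower in PICT against OMCT. Leaving out members not above the highest negative control, an alternative chosen after seeing the data, left 0 lower there, since Apod was dim in PICT. No paired analysis was possible because each tissue has 1 array. Signal near the negative controls limits the sizes for Apod and Fads2 in PICT and Cd36 in PCT. Dim signals also enter the folds of Fa2h in PICT (10.1), Fabp4 in PCT (10.2) and Aloxe3 in OMCT (8.09). The highest negative controls there were 8.36, 5.71 and 3.60, so these sizes are not exact either.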
